A study of Mus musculus with 32 samples.

Results

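The genes described here are 35 genes of glycolysis and of the transcriptional response to low oxygen. They were chosen by name from these pathways, with no measured value in the rule, out of 17892 genes named in the value tables. They comprise 3 genes of glucose entry, 7 of upper glycolysis, 6 of lower glycolysis, 3 of pyruvate and lactate handling, 4 that code for hypoxia-inducible factors (HIF) and their oxygen sensors, 2 for secreted products of HIF targets, 8 mitochondrial and growth-control HIF targets and 2 for collagen prolyl hydroxylases. The cells were macrophages differentiated from bone marrow of mice of the strains AKR and DBA/2, 16 weeks old, grown in medium with macrophage colony stimulating factor from L-cells. All mice were ApoE-/-, so every group, the unloaded controls included, lacked apolipoprotein E. Loaded cells were given acetylated LDL (AcLDL), a modified lipoprotein that macrophages take up through scavenger receptors, for 24 h. Experiment 1 used cells of females and 100 µg/ml AcLDL, and experiment 2 used cells of males and 50 µg/ml. In each experiment, 4 cultures per strain received AcLDL and 4 per strain did not, with 1 array for each culture. The dishes were quadruplicates that are not said to come from separate mice, so that p-values measure only the spread between these cultures, which may be technical. Sex, AcLDL dose and preparation, and array version all changed between the experiments and cannot be told apart.

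Glycolysis splits glucose into pyruvate in the cytosol and yields ATP without oxygen, and lactate dehydrogenase turns the pyruvate into lactate when it does not enter the mitochondria. HIF factors are alpha subunits that prolyl hydroxylases of the Egln family mark for degradation while oxygen is present; when the hydroxylases are inactive, the alpha subunit pairs with Arnt and binds short hypoxia response elements near its target genes. Most glycolytic enzymes, the main glucose transporter and vascular endothelial growth factor are classical HIF targets, and macrophages raise glycolysis when they are activated.

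Values are log2 array values as the authors deposited them, and a gene was read from its brightest probe among those whose highest group mean passed the median of the table, 5.98 in experiment 1 and 4.29 in experiment 2. In experiment 1, 30 of the 35 genes had a probe and 27 passed that level. Gpi1, Pgam1, Eno1, Epas1 and Kdm3a had no probe named for them, and Pgk1, Hif1a and Bnip3 stayed below the level, with values between 5.38 and 5.98. In experiment 2, 32 genes had a probe and 27 passed. Gpi1, Eno1 and Ankrd37 had no probe, and Pfkfb3, Pgk1, Adm, Bnip3 and Higd1a did not pass. A total of 23 genes were measured in both experiments, 18 of them from the same probe, 31 were measured in at least 1 experiment, and 4 in none. A gene that passed only through the group where it was high had to differ between groups, so the counts below are set beside the same count over all genes that passed, 9312 in experiment 1 and 9356 in experiment 2. A gene is called higher or lower at a Benjamini-Hochberg adjusted p under 0.01 in limma, adjusted over all probes that passed.

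Of the 32 arrays, 30 correlated best with the other arrays of their own group, with r from 0.982 to 0.996. The exceptions were both in experiment 2. The array labelled AKR unloaded replicate 1 had r = 0.966 with its own group and 0.986 with loaded AKR cells, and the array labelled AKR loaded replicate 2 had r = 0.968 with its own group and 0.985 with unloaded AKR cells. Experiment 2 is therefore given by its labels and also without these 2 arrays. Of 8 macrophage markers 6 had a probe, and all 6 (Adgre1, Cd14, Fcgr1, Itgam, Lyz2 and Mertk) passed in both experiments. In experiment 1 the summed macrophage signal was 15.22 to 15.34 in unloaded and 14.89 to 14.96 in loaded AKR arrays on the log2 scale. That of 4 osteoclast markers, with Ctsk and Oscar passing, was 9.77 to 9.91 and 10.90 to 11.03 in the same arrays. In DBA/2 cells the summed signal of the 8 neutrophil markers with a probe, of which Camp, Prtn3 and S100a8 passed, was 9.50 to 9.56 in unloaded and 10.55 to 11.03 in loaded arrays. In the same arrays that of the 6 stromal and endothelial markers was 8.66 to 8.81 and 9.11 to 9.30, and that of the osteoclast markers 9.14 to 9.35 and 9.38 to 9.70. The sums were taken on the linear scale and follow their brightest marker most. The highest single array value was 10.89 among the osteoclast and 10.72 among the neutrophil markers of experiment 1. Ctsk is also a lysosomal protease gene that the paper lists as regulated by loading. The sums are thus no measure of cell content. The part of such cells in the results below was not tested, and in a bulk sample fewer cells of a type and less RNA per cell cannot be told apart. The Apoe probe read 7.97 to 8.39 in experiment 1 and 4.48 to 6.06 in experiment 2. Its place relative to the deleted part of the gene was not determined, so it checks no label.

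The promoters of 6 of these genes are shown, from 250 bases before to 50 bases after the annotated start (RefSeq, build GRCm38.p6, 5′ to 3′ on the strand of the gene). Capitals mark ACGTG, a core of the hypoxia response element, or its reverse complement CACGT. The palindrome CACGTG holds both, which overlap and are each counted. The first 5 hold a match and belong to genes that rose with loading in at least 1 strain in both experiments (the second without the 2 arrays named above), and Eno2 is shown because it had one of the largest rises and holds none. Without those arrays, Egln3 passed the level of the filter in experiment 2 only through loaded cells.
Slc2a1 chr4:119108495-119108794 (+ strand): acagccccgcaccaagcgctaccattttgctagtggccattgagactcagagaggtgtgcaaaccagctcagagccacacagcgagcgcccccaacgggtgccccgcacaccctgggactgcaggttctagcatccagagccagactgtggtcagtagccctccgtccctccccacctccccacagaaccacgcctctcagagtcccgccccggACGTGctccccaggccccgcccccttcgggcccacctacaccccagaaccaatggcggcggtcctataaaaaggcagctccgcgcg
Hk2 chr6:82774405-82774704 (- strand): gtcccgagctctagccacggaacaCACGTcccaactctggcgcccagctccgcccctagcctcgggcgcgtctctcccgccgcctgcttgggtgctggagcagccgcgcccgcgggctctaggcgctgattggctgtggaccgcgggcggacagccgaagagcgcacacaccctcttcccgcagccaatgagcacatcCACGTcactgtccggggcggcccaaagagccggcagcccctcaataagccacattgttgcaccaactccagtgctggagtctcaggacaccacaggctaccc
Ldha chr7:46845554-46845853 (+ strand): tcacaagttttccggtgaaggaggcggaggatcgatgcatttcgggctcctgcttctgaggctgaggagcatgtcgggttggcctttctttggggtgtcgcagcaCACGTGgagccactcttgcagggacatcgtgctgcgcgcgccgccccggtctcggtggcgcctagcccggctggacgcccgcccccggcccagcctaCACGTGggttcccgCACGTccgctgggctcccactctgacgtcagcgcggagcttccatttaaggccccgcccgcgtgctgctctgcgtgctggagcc
Egln3 chr12:54203825-54204124 (- strand): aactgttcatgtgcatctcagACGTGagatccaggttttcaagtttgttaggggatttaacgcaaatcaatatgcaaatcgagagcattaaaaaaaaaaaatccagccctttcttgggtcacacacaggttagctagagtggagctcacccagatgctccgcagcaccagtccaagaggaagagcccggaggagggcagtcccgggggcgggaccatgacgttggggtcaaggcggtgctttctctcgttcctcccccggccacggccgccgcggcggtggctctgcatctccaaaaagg
P4ha2 chr11:54100674-54100973 (+ strand): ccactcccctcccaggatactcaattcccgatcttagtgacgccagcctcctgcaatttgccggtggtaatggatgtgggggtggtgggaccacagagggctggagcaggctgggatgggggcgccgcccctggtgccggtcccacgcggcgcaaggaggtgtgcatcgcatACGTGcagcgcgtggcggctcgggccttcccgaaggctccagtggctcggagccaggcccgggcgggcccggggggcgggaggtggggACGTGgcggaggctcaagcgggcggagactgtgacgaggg
Eno2 chr6:124769624-124769923 (- strand): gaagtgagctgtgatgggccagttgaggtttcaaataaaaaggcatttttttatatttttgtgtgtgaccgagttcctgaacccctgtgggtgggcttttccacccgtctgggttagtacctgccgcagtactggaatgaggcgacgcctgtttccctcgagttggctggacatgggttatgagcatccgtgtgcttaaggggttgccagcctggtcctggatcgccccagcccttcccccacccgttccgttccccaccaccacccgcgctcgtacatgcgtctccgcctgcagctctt

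The match in Slc2a1 lay at -36 from the start, those in Hk2 at -226 and -52, and that in Egln3 at -229, counted from the start to the first base of the match. Ldha held 5 matches, in 2 overlapping pairs and 1 single copy. P4ha2 held 1 match before and 1 after its start. Of the 35 genes, 32 had a promoter window, and 22 of these (68.8%) held ACGTG on either strand in at least 1 window, against 21.8% of 27025 genes with a window. By window the shares were 53.2% of 47 and 19.6% of 32851. Many of the genes were chosen as HIF targets, so that a larger share than over all genes was built into the choice. Tpi1, Pfkl, Pdk1 and Eno2 were among the genes with no match, and Vegfa held 1 match in the second of its 2 windows. Of the genes not called with loading in experiment 1, Slc16a3, Higd1a and Mxi1 held a match, Ccng2 held none and Bnip3l had no window. The match is a description of the letters in these windows and marks no bound site.

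In experiment 1, loading raised most of the measured glycolytic genes in macrophages of both strains. In AKR cells 20 of the 27 measured genes rose and none fell, against 16.2% of all genes higher and 15.1% lower. The rises ran from 1.23-fold for Vegfa to 4.87-fold for Eno2. In DBA/2 cells 17 of 27 rose and none fell, against 6.42% of all genes higher and 6.4% lower, with rises from 1.21-fold for Egln1 to 1.99-fold for Egln3. A total of 15 genes rose in both strains. Hk2, Ndrg1, P4ha1, Pfkfb3 and Vegfa were called in AKR cells alone, Adm and Gapdh in DBA/2 cells alone, and Bnip3l, Ccng2, Higd1a, Mxi1 and Slc16a3 in neither. Of these, Adm passed the level of the filter only through loaded cells. The median change of the 27 genes was 0.52 log2 units in AKR and 0.34 in DBA/2 cells, and that of all genes was 0.01 in each. All 4 loaded arrays lay above all 4 unloaded arrays for 21 of the 27 genes in AKR cells, against 20.2% of all genes, and for 17 in DBA/2 cells, against 12.3%. They lay below for none, against 18.7% and 11% of all genes. The DBA/2 count depended on single arrays and fell to 11 without unloaded replicate 1 or without loaded replicate 2 of DBA/2.

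**Figure D1:**
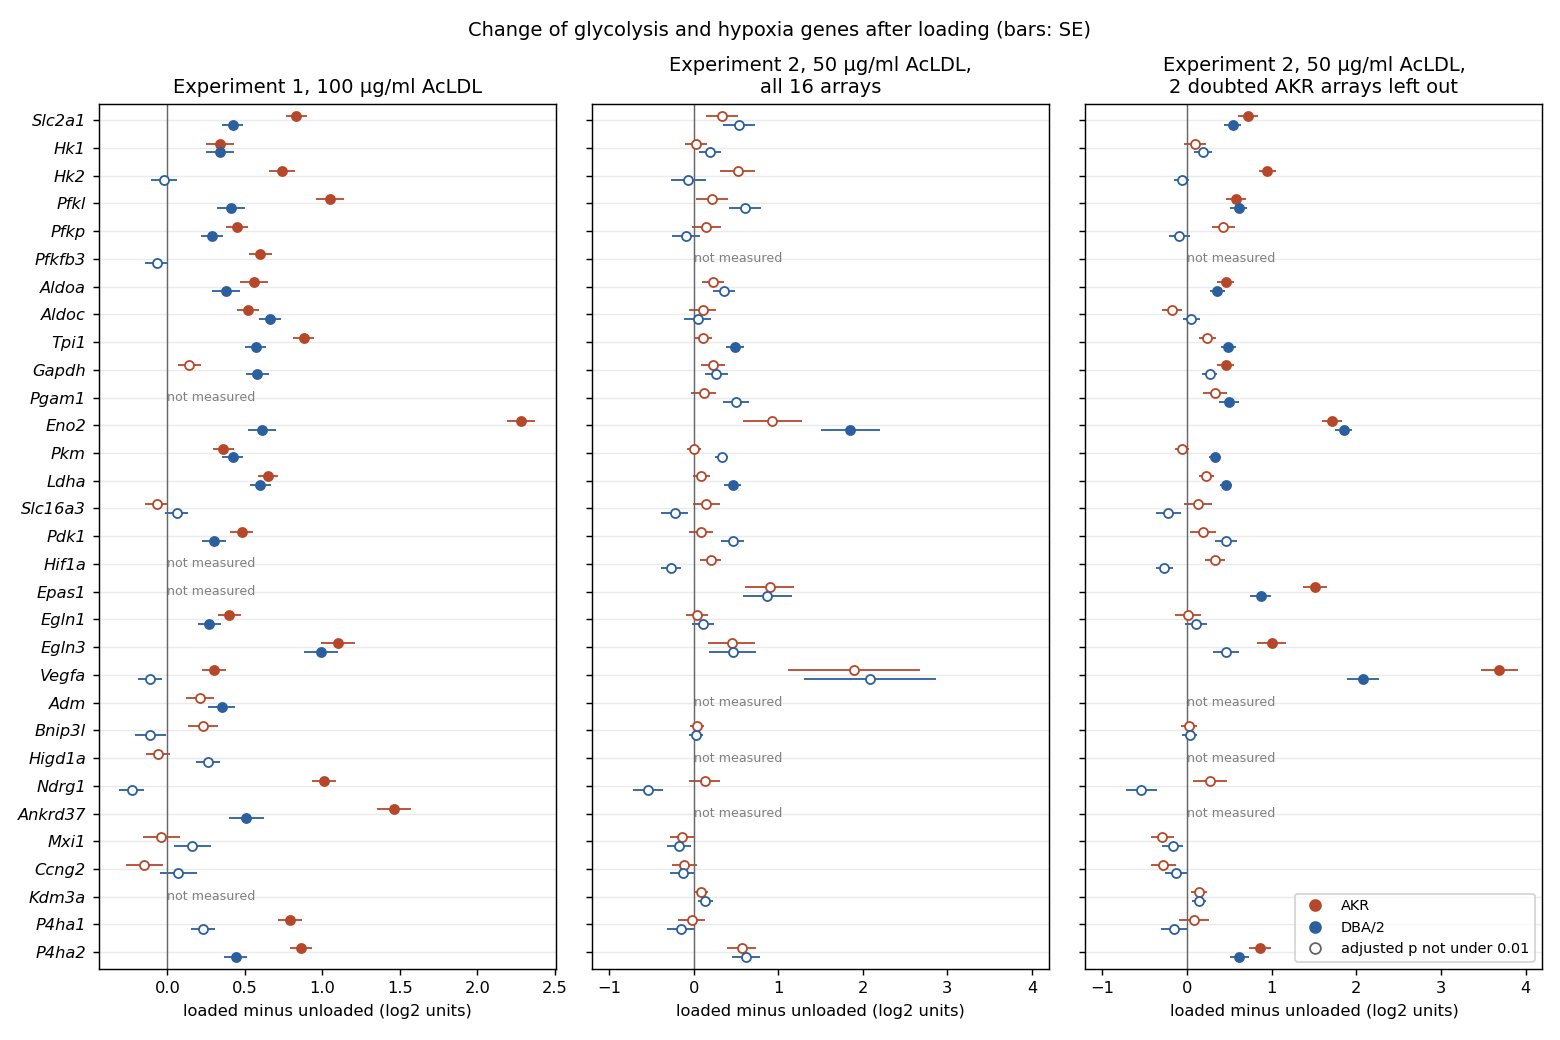
Change with AcLDL loading of every glycolysis and hypoxia gene measured in at least 1 experiment, as loaded minus unloaded in log2 units with the SE, in AKR (red) and DBA/2 (blue) cells; open points have an adjusted p not under 0.01. In experiment 1 most points lie right of 0 and Eno2 stands out in AKR cells at 2.28, and in experiment 2 Vegfa has the largest change once the 2 doubted AKR arrays are left out.

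RNA of the genes for both steps of glucose entry rose in AKR cells, and glucose uptake was not measured. Slc2a1, the main glucose transporter of most cells, read 9.73, 9.86, 9.69 and 9.75 in the unloaded and 10.59, 10.55, 10.60 and 10.62 in the loaded AKR arrays. In DBA/2 arrays it read 9.98, 10.18, 10.09 and 9.94 without and 10.42, 10.61, 10.38 and 10.47 with AcLDL. Loaded and unloaded arrays did not overlap in either strain, and the rise was 1.78-fold in AKR (0.83 ± 0.068 SE log2 units, adjusted p = 4.25e-10) and 1.34-fold in DBA/2 cells (0.42 ± 0.068, adjusted p = 6.57e-05). Hk2, the inducible hexokinase that traps glucose as its phosphate, rose in AKR cells alone and differed between the strains by the interaction. Its AKR arrays read 10.26, 10.28, 10.13 and 10.29 unloaded and 11.07, 11.06, 11.03 and 10.75 loaded. Its DBA/2 arrays read 10.90, 10.89, 10.83 and 10.90 unloaded and 10.99, 11.05, 10.68 and 10.73 loaded. AKR cells thus rose by 0.74 ± 0.083 (adjusted p = 1.03e-07), the DBA/2 groups overlapped with a difference of -0.02 ± 0.083 (adjusted p = 0.914), and the unloaded DBA/2 arrays lay within the range of the loaded AKR arrays. Hk1, the constitutive hexokinase, rose by 0.34 in each strain, with adjusted p-values of 0.00379 in AKR and 0.00755 in DBA/2 cells.

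All 6 measured genes of upper glycolysis rose in AKR cells and 5 of them in DBA/2 cells. Pfkl, the liver-type subunit of phosphofructokinase, which commits sugar to glycolysis, rose 2.06-fold in AKR and 1.33-fold in DBA/2 cells. Its unloaded arrays read 10.59, 10.53, 10.42 and 10.48 in AKR and 10.76, 10.90, 10.93 and 11.03 in DBA/2, and its loaded arrays 11.53, 11.83, 11.39 and 11.44 in AKR and 11.29, 11.55, 11.17 and 11.25 in DBA/2, with no overlap of loaded and unloaded arrays in either strain. Tpi1, triosephosphate isomerase, rose 1.84-fold in AKR and 1.48-fold in DBA/2 cells. Its loaded AKR arrays read 13.09, 13.13, 13.11 and 13.12, all above 12.17, 12.21, 12.29 and 12.29 unloaded. The platelet-type subunit Pfkp (0.45 and 0.29 log2 units in AKR and DBA/2), and the aldolases Aldoa (0.56 and 0.38) and Aldoc (0.52 and 0.66), which split the doubly phosphorylated sugar, rose in both strains. Pfkfb3, which makes the fructose bisphosphate that activates phosphofructokinase, rose by 0.60 ± 0.074 in AKR cells and changed by -0.07 ± 0.074 (adjusted p = 0.535) in DBA/2 cells. Its unloaded DBA/2 arrays, at 9.55, 9.44, 9.66 and 9.58, lay within the range of the loaded AKR arrays, at 9.54, 9.43, 9.50 and 9.72. On their second probes, Pfkp changed by 0.27 in AKR (called) and by -0.02 in DBA/2 cells, and Aldoc by 0.11 and 0.20, neither of them called. The second probe of Tpi1, with group means of 6.43 to 6.68, was not called either. It changed by 0.20 in AKR (adjusted p = 0.0302) and by 0.03 in DBA/2 cells (adjusted p = 0.802).

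In lower glycolysis the largest change was that of Eno2, the gamma enolase best known from neurons. It read 9.09, 9.20, 9.22 and 9.29 in unloaded and 11.42, 11.60, 11.52 and 11.41 in loaded AKR arrays, a rise of 4.87-fold (2.28 ± 0.09, adjusted p = 5.63e-16). In DBA/2 cells it read 9.77, 9.90, 9.74 and 9.79 unloaded and 10.39, 10.75, 10.15 and 10.36 loaded, a rise of 1.53-fold (0.61 ± 0.09, adjusted p = 1.83e-05). The 4 groups did not overlap: unloaded cells were lowest, AKR before DBA/2, and among loaded cells AKR was the higher strain. Pkm, pyruvate kinase, rose by 0.36 in AKR and 0.42 in DBA/2 cells. Gapdh, which oxidises the triose phosphate and is often used as a reference gene, rose by 0.58 ± 0.075 in DBA/2 cells and changed by 0.14 ± 0.075 (adjusted p = 0.137) in AKR cells on its brightest probe. That probe read 13.31 to 14.17, near the 14.41 that was the highest value of the table, and the other probes of Gapdh rose in both strains, by 0.38 and 0.49 in AKR and by 0.69 and 0.72 in DBA/2 cells. Ldha, the muscle-type subunit of lactate dehydrogenase, rose by similar amounts in the 2 strains. It read 12.34, 12.43, 12.22 and 12.33 against 12.92 to 13.03 in AKR and 12.28, 12.24, 12.25 and 12.11 against 12.71, 12.85, 12.85 and 12.85 in DBA/2 arrays, rises of 0.65 and 0.60 whose difference was -0.05 ± 0.092. Pdk1, the kinase that shuts pyruvate dehydrogenase, rose by 0.48 in AKR and 0.30 in DBA/2 cells. The lactate exporter Slc16a3 stayed close to the median of the table, at 6.05 to 6.37, and was not called.

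Among the oxygen sensors, Egln3, a prolyl hydroxylase that is itself a HIF target, rose by similar amounts in both strains. It read 8.55, 9.20, 8.54 and 8.83 unloaded against 10.04, 9.82, 9.87 and 9.79 loaded in AKR arrays, and 9.35, 9.30, 9.15 and 9.18 against 10.18, 10.51, 10.06 and 10.21 in DBA/2 arrays. The rises of 2.14-fold and 1.99-fold differed by -0.11 ± 0.16 log2 units. Egln1, the main prolyl hydroxylase of most cells, rose by 0.40 ± 0.073 in AKR and by 0.27 ± 0.073 in DBA/2 cells on its brightest probe. The DBA/2 call had an adjusted p of 0.00903, was lost when dim probes were kept (adjusted p = 0.0213), and both other probes of Egln1 were not called in either strain. Hif1a did not pass the level of the filter and Epas1 had no probe in this experiment.

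Of the HIF targets outside glycolysis, Ankrd37, Ndrg1, P4ha1, P4ha2 and Vegfa rose in AKR cells, and Ankrd37, P4ha2 and Adm rose in DBA/2 cells. Ankrd37, a small ankyrin repeat protein induced by hypoxia, read 7.59, 7.88, 7.08 and 7.43 in unloaded and 8.99, 8.96, 8.84 and 9.01 in loaded AKR arrays, a rise of 2.74-fold, and it rose 1.42-fold in DBA/2 cells. Ndrg1, a growth-arrest and stress-response gene, read 10.37, 10.61, 10.39 and 10.38 in unloaded and 11.48, 11.37, 11.42 and 11.53 in loaded AKR arrays, a rise of 2.02-fold (adjusted p = 2.39e-10). In DBA/2 arrays it read 10.15, 10.47, 10.25 and 10.08 unloaded and 9.94, 10.15, 9.98 and 9.97 loaded, which overlapped, with a difference of -0.23 ± 0.08 (adjusted p = 0.0460). P4ha1 and P4ha2, the catalytic subunits of the enzyme that hydroxylates collagen, rose 1.73-fold and 1.81-fold in AKR cells, while in DBA/2 cells P4ha2 rose 1.36-fold and P4ha1 differed by 0.23 ± 0.077 (adjusted p = 0.0322). Vegfa, the growth factor of blood vessels, rose by 0.30 ± 0.078 in AKR cells, from 9.18, 9.33, 9.05 and 9.09 to 9.47, 9.46, 9.47 and 9.44. In DBA/2 arrays it read 9.96, 10.14, 10.26 and 10.17 unloaded and 10.12, 10.16, 9.92 and 9.90 loaded, groups that overlapped. Adm, which codes for the vasodilator adrenomedullin, rose in DBA/2 cells (adjusted p = 0.00619), from a mean of 5.95, below the level of the filter, to 6.30, so that no fold is given. Its unloaded AKR arrays lay below that level too. Adm thus passed only through loaded cells, and its call is no separate support. The mitophagy receptor Bnip3l, the mitochondrial protein Higd1a, the Myc antagonist Mxi1 and the cyclin Ccng2 were not called in either strain, with changes from -0.15 to 0.26.

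The strains differed in their response for 11 of the 27 genes by the strain-loading interaction in experiment 1, with a smaller change in DBA/2 cells for 10 of them and a larger one for Gapdh. Over all genes 8.2% had a lower and 7.61% a higher value of the interaction. The largest differences were -1.67 ± 0.13 for Eno2 (adjusted p = 8.57e-10), -1.24 ± 0.11 for Ndrg1 (1.62e-08) and -0.95 ± 0.16 for Ankrd37 (6.94e-05). Hk2, Pfkfb3, Pfkl and P4ha1 followed at -0.75, -0.68, -0.63 and -0.56, and P4ha2, Slc2a1 and Vegfa each at -0.41. The second Ndrg1 probe gave -1.17. That of Vegfa was not called when dim probes were kept (adjusted p = 0.0175). For Gapdh the difference was 0.44 ± 0.11 on the brightest probe (adjusted p = 0.00360), and 0.31 and 0.23 on its other probes, which were not called. Egln3, Ldha, Aldoc, Pkm, Hk1, Aldoa and Pdk1 were not called, with differences between -0.18 and 0.14.

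**Figure D2:**
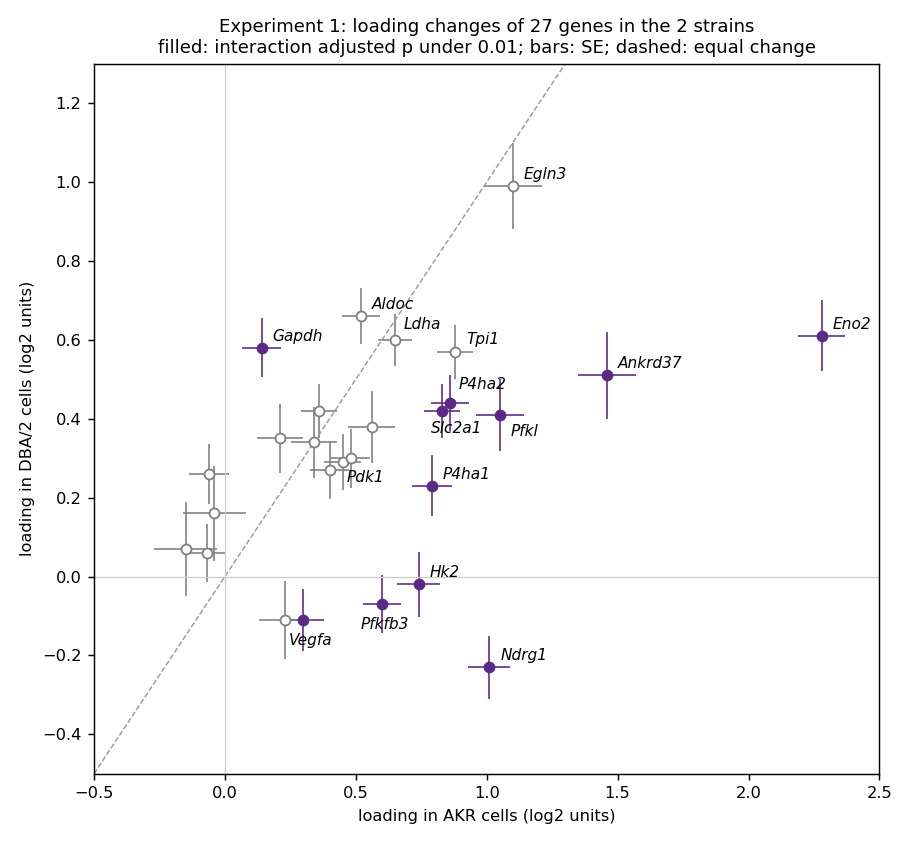
Loading change in AKR cells (horizontal) against DBA/2 cells (vertical) of the 27 genes measured in experiment 1, in log2 units with SE bars; filled points have an interaction with an adjusted p under 0.01 and the dashed line marks equal change. Of the filled genes 10 lie below the line, Eno2 farthest at 2.28 against 0.61, and Gapdh lies above it.

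Before loading, DBA/2 macrophages had the higher values for 12 of the 27 genes in experiment 1 and the lower value for 1, against 14.3% of all genes higher and 13.9% lower. This comparison shares the unloaded AKR arrays with that of loading in AKR cells. Pdk1 differed most, with 7.86, 8.21, 7.92 and 7.97 in AKR and 9.17, 9.19, 9.24 and 9.37 in DBA/2 arrays, 2.38-fold higher in DBA/2 (1.25 ± 0.075, adjusted p = 1.01e-12). Vegfa was 1.96-fold higher (adjusted p = 2.82e-10), Hk2 1.56-fold, Pfkfb3 1.53-fold and Eno2 1.51-fold. Egln3, Ankrd37, Aldoa, Pfkl, P4ha1, Slc2a1 and Aldoc were higher by 0.28 to 0.47 log2 units. Pfkp was lower in DBA/2 cells, by -0.37 ± 0.071 on its brightest probe and -0.74 on the other. The summed osteoclast signal was 9.77 to 9.91 in unloaded AKR and 9.14 to 9.35 in unloaded DBA/2 arrays, and the stromal and endothelial signal 8.22 to 8.38 and 8.66 to 8.81, and their part in these differences was not tested. Probes over sequence that varies between the strains were not removed from the values used here, and their part in the strain differences was not tested.

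Experiment 2 was read first by its labels. Of its 27 measured genes 2 differed between the unloaded strains, both higher in DBA/2 cells, against 4.96% of all genes higher and 5.69% lower. Pdk1 read 5.91, 5.33, 5.64 and 5.66 in AKR and 6.69, 6.98, 7.02 and 6.71 in DBA/2 arrays, 2.32-fold higher (adjusted p = 7.84e-06). Hk2 read 9.47, 8.65, 8.53 and 8.74 in AKR and 9.80, 9.98, 10.09 and 9.90 in DBA/2 arrays, 2.14-fold higher (adjusted p = 0.00108). These were higher in unloaded DBA/2 cells in both experiments. Loading in AKR cells gave no call by limma among the 27 genes (5 had an unadjusted p under 0.05) and none among all genes (0%), and limma with a trended and robust prior also called none of the 27. The interaction gave none either (5 with an unadjusted p under 0.05, and none with the trended prior), against 0.588% of all genes higher and 0.406% lower. Loaded AKR arrays lay all above the unloaded arrays for none of the 27 genes, against 1.17% of all genes, and all below for none, against 1.27%. Loading in DBA/2 cells raised Eno2 3.61-fold, Tpi1 1.4-fold and Ldha 1.38-fold, against 4.56% of all genes higher, and lowered none, against 3.74%. In DBA/2 arrays Eno2 went from 6.20, 6.04, 6.09 and 5.79 to 7.95, 7.67, 7.83 and 8.09, and Ldha from 11.20, 11.04, 11.21 and 11.18 to 11.65, 11.65, 11.51 and 11.67, with no overlap. Tpi1 and Ldha were not called when dim probes were kept (adjusted p = 0.0181 and 0.0171). The other probes of Tpi1 changed by 0.37 (adjusted p = 0.0167) and -0.00 (adjusted p = 0.992) in DBA/2 cells and were not called. All loaded DBA/2 arrays lay above the unloaded ones for 14 of the 27 genes, against 16.5% of all genes, and below for 0, against 13.1%. The count of called genes rested on single arrays: it was 8 without AKR unloaded replicate 1, 6 without AKR loaded replicate 2, and 1 without any one of unloaded replicates 2, 3 or 4 or loaded replicates 1 or 4 of DBA/2.

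The 2 doubted AKR arrays stood out in these genes. Vegfa read 9.50 in AKR unloaded replicate 1 and 5.53, 5.26 and 5.99 in the others of that group, and it read 6.02 in AKR loaded replicate 2 and 8.96, 9.44 and 9.42 in the others. Eno2 read 8.01 against 6.43, 6.54 and 6.44, and 6.61 against 8.18, 8.19 and 8.16, in the same arrays. Each of the 2 arrays thus lay in the range of the group with the other label or close to it.

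**Figure D3:**
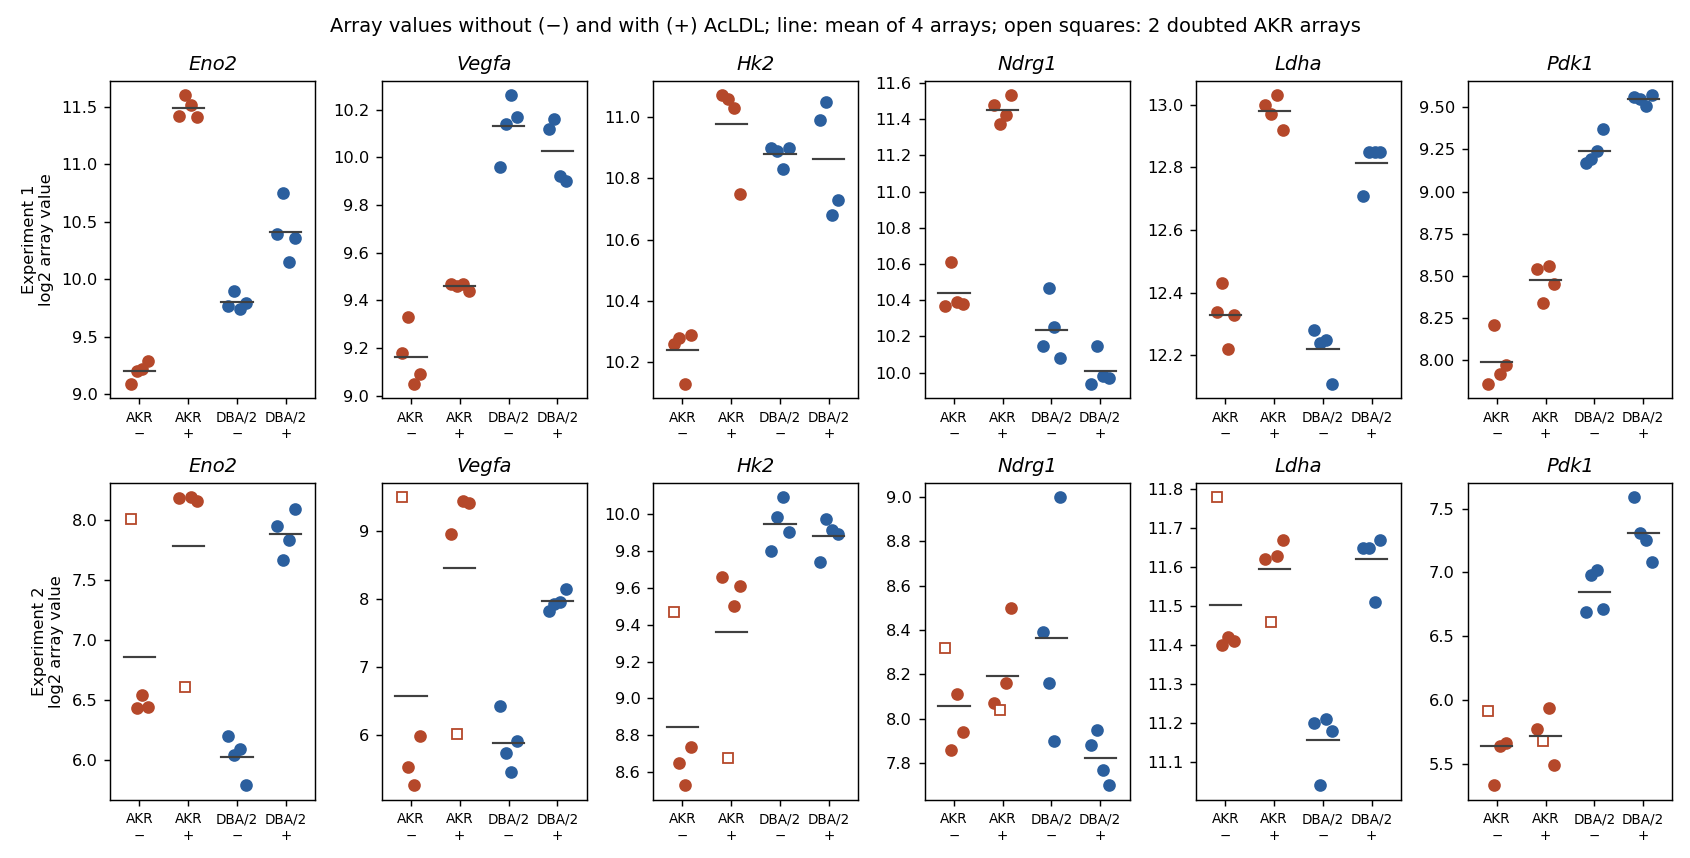
Log2 array values of Eno2, Vegfa, Hk2, Ndrg1, Ldha and Pdk1 in each array without (−) and with (+) AcLDL, AKR in red and DBA/2 in blue, with the mean of the 4 arrays as a line and the 2 doubted AKR arrays of experiment 2 as open squares. In experiment 2 the open squares of Eno2, Vegfa and Hk2 lie with the AKR group of the other label, and Hk2 and Pdk1 start higher in unloaded DBA/2 cells in both experiments.

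Without these arrays, loading in experiment 2 raised 10 of the 27 genes in AKR and 11 in DBA/2 cells and lowered none, against 10.1% and 10.3% of all genes higher and 9.63% and 8.63% lower. The arrays did not overlap, with loaded cells higher, for 15 genes in AKR and 14 in DBA/2 cells, against 22.7% and 16.3% of all genes, and with loaded cells lower for 2 and 0, against 20.6% and 12.9%. These counts read each gene from its brightest probe. The 10 genes in AKR cells include Egln3, which here passed the level of the filter only through loaded cells. The second probe of Pfkp was called lower in DBA/2 cells, by -0.48 ± 0.12 (adjusted p = 0.00592 in limma). By the labels that probe was not called (adjusted p = 0.0149). Vegfa rose most, 12.9-fold in AKR (3.69 ± 0.22, adjusted p = 8.18e-09) and 4.23-fold in DBA/2 cells (2.08 ± 0.19, adjusted p = 5.27e-07). Its DBA/2 arrays went from 6.43, 5.73, 5.46 and 5.91 to 7.82, 7.93, 7.96 and 8.15. The second Vegfa probe rose by 2.75 in AKR and 1.42 in DBA/2 cells. With all arrays kept, the changes of Vegfa were 1.90 ± 0.78 and 2.08 ± 0.78, with adjusted p-values of 0.360 and 0.0793. Eno2 rose 3.27-fold in AKR and 3.61-fold in DBA/2 cells.

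Of the HIF factors, Epas1, an alpha subunit of narrower expression than Hif1a, rose 2.84-fold in AKR (1.51 ± 0.14, adjusted p = 5.73e-07) and 1.83-fold in DBA/2 cells (0.87 ± 0.12, adjusted p = 3.62e-05) without the 2 arrays. It read 4.59, 4.33 and 4.24 unloaded and 5.99, 5.89 and 5.80 loaded in the AKR arrays left, and 4.46, 4.22, 4.66 and 4.51 against 5.56, 5.43, 5.10 and 5.25 in DBA/2 arrays, values near the median of the table. Its second probe rose by 0.90 in AKR cells and changed by 0.15 (adjusted p = 0.463) in DBA/2 cells. That probe passed the filter only through loaded AKR cells, with a mean of 4.65 against 3.75 to 3.96 in the other groups. Its AKR rise is therefore no separate support. Hif1a, whose product is controlled mostly by degradation, was not called: it differed by 0.33 ± 0.12 in AKR (adjusted p = 0.0424) and -0.27 ± 0.1 in DBA/2 cells (adjusted p = 0.0590). Egln3 was called higher in loaded AKR cells (adjusted p = 3.44e-04) and not in DBA/2 cells (adjusted p = 0.0301). Its unloaded means, 3.98 in AKR and 4.06 in DBA/2 cells, lay below the level of the filter, and its loaded means were 4.98 and 4.52, so that no fold is given. Egln3 thus passed only through its loaded groups, and its AKR call is no separate support. Egln1 differed by 0.01 and 0.11. Kdm3a, a histone demethylase, was not called on its brightest probe, and its 3 probes did not run the same way between the unloaded strains, at -0.17, -0.38 and 0.81, of which the last was called. With loading in DBA/2 cells its second probe was called higher, by 0.35 (adjusted p = 0.00999 in limma). The third changed by -0.16 and was not called. By the labels the second probe was not called (adjusted p = 0.0192).

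In glycolysis, again without the doubted arrays, Hk2 rose 1.93-fold in AKR cells and differed by -0.06 ± 0.088 in DBA/2 cells, where unloaded arrays already read above the loaded AKR arrays. P4ha2, Slc2a1, Pfkl and Aldoa rose in both strains, by 0.86, 0.72, 0.58 and 0.46 in AKR and by 0.62, 0.54, 0.61 and 0.36 in DBA/2 cells. Gapdh rose by 0.46 in AKR cells, and Pgam1, phosphoglycerate mutase, by 0.50 in DBA/2 cells along with Tpi1, Ldha and Pkm. With all arrays kept, the changes in AKR cells were 0.93 for Eno2, 0.90 for Epas1, 0.57 for P4ha2, 0.52 for Hk2, 0.34 for Slc2a1, 0.23 for Aldoa and Gapdh and 0.22 for Pfkl, with adjusted p-values from 0.360 to 0.596. Ndrg1, which rose in AKR cells in experiment 1, differed here by 0.27 ± 0.2 in AKR and -0.54 ± 0.18 in DBA/2 cells and was not called (adjusted p = 0.367 and 0.0327). Of 23 genes measured in both experiments, 18 rose in AKR cells in experiment 1, 9 in experiment 2 without these arrays and 8 in both, which is 8 of 18 and 8 of 9. The 8 include Egln3, which without these arrays passed the level of the filter in experiment 2 only through loaded cells. In DBA/2 cells the counts were 15, 9 and 8. The same overlap was not counted over all genes, so that these counts do not measure agreement between the experiments. Slc2a1, Pfkl, Aldoa, Eno2 and P4ha2 rose in both strains of both experiments without these arrays, while by the labels no gene was called in both strains of experiment 2. Over the 23 genes the AKR changes of the 2 experiments had Pearson's r of 0.35 and Spearman's rho of 0.58, as a description across genes, which are not independent replicates, against r = 0.62 over 7208 genes.

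The response differed between strains for Vegfa and Hk2 in experiment 2 without the doubted arrays, both with the smaller change in DBA/2 cells, against 2.59% of all genes lower and 3.17% higher. The difference was -1.61 ± 0.29 for Vegfa (adjusted p = 0.00186) and -1.33 for its second probe, and -1.02 ± 0.13 for Hk2 (adjusted p = 1.42e-04). With all arrays kept, that of Vegfa was 0.18 ± 1.1 and that of Hk2 -0.58 ± 0.29 (adjusted p = 0.967 and 0.354). Eno2, which differed most between the strains in experiment 1, differed by 0.14 ± 0.16 here (adjusted p = 0.645), and whether its interaction differed between the experiments was not tested. Between the unloaded strains, Pdk1 and Hk2 were each 2.47-fold higher in DBA/2 cells, against 7.01% of all genes higher, and Eno2 was lower (-0.44 ± 0.11, adjusted p = 0.00859), against 8.02% lower. Vegfa, higher in unloaded DBA/2 cells in experiment 1, differed by 0.29 ± 0.2 (adjusted p = 0.348). The summed osteoclast signal of experiment 2 was 8.53 to 9.28 in AKR and 6.92 to 7.84 in DBA/2 arrays, and that of the neutrophil markers 9.14 to 10.19 and 8.30 to 8.59, and their part in the strain differences was not tested.

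**Figure D4:**
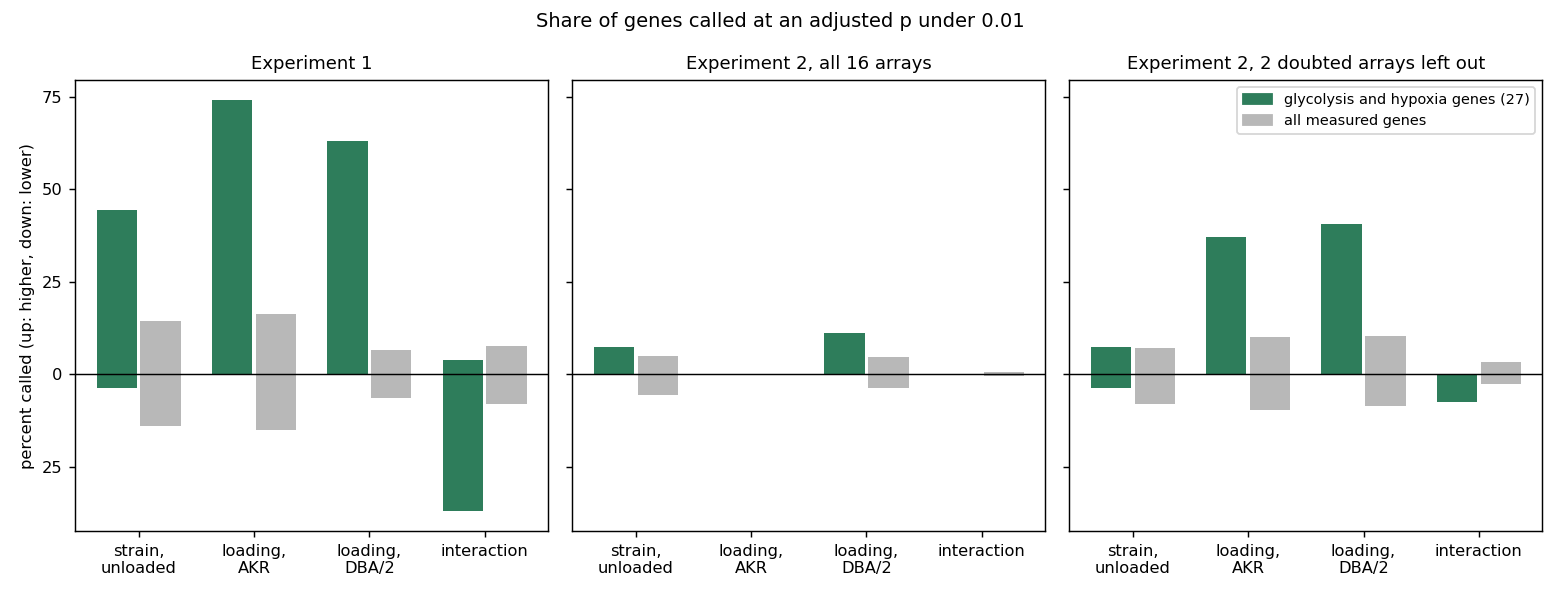
Percent of genes called at an adjusted p under 0.01 in each comparison, higher above and lower below 0, for the 27 measured glycolysis and hypoxia genes (green) and all measured genes (grey). In experiment 1, 74.1% of the genes rose with loading in AKR and 63% in DBA/2 cells, and in experiment 2 the shares without the doubted arrays were 37% and 40.7%.

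Over all genes of experiment 1, 16.2% rose and 15.1% fell in AKR cells, and 6.42% rose and 6.4% fell in DBA/2 cells. Of 12 other glycolysis and sugar genes measured in experiment 1, 5 rose and 2 fell in AKR cells, and 3 rose and 1 fell in DBA/2 cells. Hk3, the myeloid hexokinase, rose by 1.81 ± 0.069 in AKR and 0.78 ± 0.069 in DBA/2 cells, with an interaction of -1.03 (adjusted p = 2.95e-08), and Pgm1, which links glucose phosphate to glycogen, rose by 0.68 and 0.32. Pygl, the liver glycogen phosphorylase, fell by 0.43 in AKR and by 0.24 in DBA/2 cells. In experiment 2 without the doubted arrays, where 10.1% of all genes rose and 9.63% fell in AKR and 10.3% rose and 8.63% fell in DBA/2 cells, 2 of 11 rose in each strain, while 3 fell in AKR and 2 in DBA/2 cells, and Hk3 rose by 0.82 and 0.77. With both arrays kept under their labels, none of these 11 genes was called with loading in either strain. Of all genes, none was then called in AKR cells, and 4.56% rose and 3.74% fell in DBA/2 cells. Of 5 pentose phosphate genes measured in experiment 1, 1 rose in AKR cells, against 16.2% of all genes, and none was called in DBA/2 cells. Of 4 measured in experiment 2 without the doubted arrays, 1 rose in AKR and 2 in DBA/2 cells, against 10.1% and 10.3% of all genes. Taldo1, transaldolase, rose in AKR cells by 0.29 in experiment 1. Without the doubted arrays of experiment 2 it rose by 0.55 in AKR and 0.83 in DBA/2 cells. By the labels of experiment 2 none of the 4 genes was called in AKR cells and 1 rose in DBA/2 cells.

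Of 14 genes of pyruvate oxidation and the citrate cycle, 2 rose and 4 fell in AKR cells, and 2 rose and 2 fell in DBA/2 cells, in experiment 1, against 16.2% and 15.1% of all genes in AKR and 6.42% and 6.4% in DBA/2 cells. Fh1, fumarate hydratase, fell by 1.69 in AKR (adjusted p = 2.85e-13) and by 0.47 in DBA/2 cells (adjusted p = 6.54e-04), with an interaction of 1.22, and without the doubted arrays of experiment 2 it fell by 1.73 and by 0.95. It was also lower in unloaded DBA/2 than AKR cells in experiment 1 (-0.92 ± 0.093). Ogdh, a subunit of oxoglutarate dehydrogenase, rose by 0.48 and 0.34 in experiment 1, and by 0.67 and 0.48 in experiment 2 without the doubted arrays. By the labels of experiment 2 none of the 13 measured genes of this list was called with loading in either strain. The medians of this list were -0.11 in each strain in experiment 1. Of 9 HIF regulators, Arnt and Crebbp rose and Eloc, a subunit of the ligase that degrades HIF alpha subunits, fell in AKR cells (0.25, 0.36 and -0.48), and Elob and Rbx1, of the same ligase, rose in DBA/2 cells (0.44 and 0.28). In experiment 2 without the doubted arrays, none of 10 was called in AKR cells (2 had an unadjusted p under 0.05 in limma). Egln2 and Cited2 fell there in DBA/2 cells, against 8.63% of all genes. By the labels none of the 10 was called in AKR cells, and 1 fell in DBA/2 cells, against 3.74% of all genes.

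Of 26 other HIF target genes measured in experiment 1, 13 rose and 5 fell in AKR cells, against 16.2% and 15.1% of all genes, and 8 rose and 3 fell in DBA/2 cells, against 6.42% and 6.4%. Bhlhe40, a transcriptional repressor, rose by 1.51 in AKR and 0.60 in DBA/2 cells, and Ak4, a mitochondrial adenylate kinase, by 0.94 and 0.40. Vegfc, a lymphatic growth factor, rose more in DBA/2 (0.95) than in AKR cells (0.34), with an interaction of 0.61 (adjusted p = 3.10e-05). Without the doubted arrays of experiment 2, 14 of 26 rose and 1 fell in AKR cells, against 10.1% and 9.63% of all genes, and 9 rose in DBA/2 cells, against 10.3%. Angptl4, an inhibitor of lipoprotein lipase that is also a target of lipid-activated PPAR receptors, rose by 3.24 and 3.29, Plin2, the lipid droplet coat protein, by 2.56 and 2.89, and Vegfb by 1.26 and 0.98. Angptl4 went the other way in AKR cells of experiment 1 (-0.86 ± 0.11). Read by the labels of experiment 2, none of the 26 genes was called in AKR cells, against 0% of all genes. In DBA/2 cells 4 rose by the labels and none fell, against 4.56% and 3.74% of all genes.

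Genes of the ATF4 and CHOP stress response, which is set off by amino acid shortage and stress of the endoplasmic reticulum, moved in AKR cells beside the glycolytic genes. In experiment 1, all 11 measured genes of that list rose in AKR cells, with a median of 0.95, against 16.2% of all genes. In DBA/2 cells 2 rose and 1 fell, with a median of 0.20, against 6.42% and 6.4% of all genes. The interaction was lower for 9 of the 11, against 8.2% of all genes. The lowest values were those of Chac1, which degrades glutathione (-2.68), the pseudokinase Trib3 (-2.30) and asparagine synthetase, Asns (-1.48). Without the doubted arrays of experiment 2, all 12 rose in AKR cells, with a median of 1.94, against 10.1% of all genes. In DBA/2 cells 2 rose and 4 fell, with a median of -0.14, against 10.3% and 8.63% of all genes. By the labels of experiment 2 none of the 12 was called in AKR cells, with a median of 1.05, against 0% of all genes. In DBA/2 cells 1 rose and 1 fell by the labels, against 4.56% and 3.74% of all genes. The part of this response in the changes of Vegfa, Eno2 and the other genes was not tested.

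Over the 16 arrays of each experiment, the genes whose values were most like those of Vegfa, by the mean of Pearson's r in the 2 experiments among 7172 genes, were the chemokine Cxcl1 (0.88 in experiment 1 and 0.92 in experiment 2), the endothelin receptor Ednrb (0.94 and 0.85), the membrane channel Panx1 (0.89 and 0.86), the stress factor Atf3 (0.88 and 0.85) and D16Ertd472e (0.91 and 0.81). These arrays fall into 4 groups, so that the correlations mostly describe group means. Among the glycolysis and hypoxia genes, Aldoa came closest (0.62 and 0.87), and Eno2 followed Vegfa in experiment 2 (0.93) but not in experiment 1 (0.10).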

How the data were processed

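RNA of 32 macrophage cultures was measured on Illumina MouseRef-8 arrays, version 1 in experiment 1 and version 2 in experiment 2, with 16 arrays each. The authors quantile-normalized and log2-transformed the values with lumi 2.6.0, and these deposited log2 values were used as given. The background correction is not given in the sources used here. Quantile normalization sets every array to the same distribution, so that changes are relative to the other genes of the array, and the experiments were normalized and tested apart. Probes were named from the platform annotation. Probes entered the tests if at least 1 of the group means lay above the median of the table, which left 13339 probes in experiment 1 and 13732 in experiment 2. A model of the 4 group means was fitted with limma 3.58.1 (R 4.3.3) and p-values were Benjamini-Hochberg adjusted over all kept probes, with a threshold of 0.01. The strain difference is DBA/2 minus AKR in unloaded cells, and the interaction is the loading change in DBA/2 minus that in AKR cells.

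The genes, lists and tests were chosen with earlier results of these data known. Named were Vegfa, Hif1a, Epas1, Egln1 and Egln3 always, up to 8 called genes with the largest change per comparison, and up to 3 called genes per comparison of each other list; the further genes named were chosen after their values were seen, to account for every gene. The scripts were tested on simulated data. Alternatives were another filter, no filter, an offset, cyclic loess, another prior, a replicate block, fewer groups in the fit and leaving out each array; leaving out both doubted AKR arrays was chosen after seeing the data. Detection p-values and a list of strain-variant probes were not used here, and the number of arrays limits the precision. The arrays of each chip are not given in the sources used here, so that a chip effect was not tested.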

Additional observations from a re-analysis of the deposited data

Results flagged for a closer look

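In each group of 4 arrays, the gap of the highest or lowest array to the nearest other was divided by the range of the group, and values over Dixon's critical value were taken as an array apart. Of 128 groups 16 had one, where about 1 in 20 groups, 6.40 here, would by chance. In experiment 1 these were AKR loaded replicate 4 for Hk2 (ratio 0.867, at 10.75 against 11.03 to 11.07), AKR loaded replicate 2 for Aldoa (0.840), DBA/2 loaded replicate 1 for Ldha (1, at 12.71 against 12.85 in the other 3), DBA/2 loaded replicate 2 for Egln1 (0.851) and AKR unloaded replicate 2 for Ndrg1 (0.917).

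In experiment 2, 9 of 11 such values belonged to the 2 doubted AKR arrays. AKR loaded replicate 2 was low for Slc2a1 (0.838), Hk2 (0.840), Pgam1 (0.912), Eno2 (0.979), Epas1 (0.840) and Vegfa (0.860). AKR unloaded replicate 1 was high for Pfkl (0.918), Eno2 (0.928) and Ldha (0.945). The remaining values were those of DBA/2 unloaded replicate 2 and DBA/2 loaded replicate 3 for Ldha, both low, with ratios of 0.858 and 0.880.

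The change with loading differed between the strains of experiment 1 by the interaction for 11 genes. It was lower in DBA/2 cells for Eno2 (-1.67), Ndrg1 (-1.24), Ankrd37 (-0.95), Hk2 (-0.75), Pfkfb3 (-0.68), Pfkl (-0.63), P4ha1 (-0.56), P4ha2 (-0.41), Slc2a1 (-0.41) and Vegfa (-0.41), and higher for Gapdh (0.44), with adjusted p-values in limma from 8.57e-10 for Eno2 to 0.00773 for Vegfa.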

How the results depend on the processing

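The counts of experiment 1 stayed within 1.5 times their values under every alternative other than leaving out an array. In experiment 2 the strain count of 2 became 4 with an offset of 50 and 4 with a trended and robust prior. Loading in DBA/2 cells, 3 genes, gave 1 without a filter, 8 with only the groups of the contrast and 11 without both doubted arrays. Without them loading in AKR cells gave 10 in place of 0 and the interaction 2 in place of 0, and the interaction of Vegfa turned from 0.18 to -1.61. For the filter and the prior, the cause was not tested. With 1 array left out, the counts of experiment 1 were 11 to 14 for the strain difference, 18 to 20 for loading in AKR, 11 to 17 for loading in DBA/2 and 9 to 12 for the interaction, and those of experiment 2 were 2 to 2, 0 to 0, 1 to 8 and 0 to 0. With the replicate number as a block the counts were unchanged, at 13, 20, 17 and 11 in experiment 1 and 2, 0, 3 and 0 in experiment 2. The arrays share only a number: 9 of 24 same-numbered pairs in experiment 1 and 12 of 24 in experiment 2 had a correlation of deviations over 0.1, and 11 and 9 of 16 arrays correlated best with their own number. Of single genes, Egln1 in DBA/2 cells of experiment 1 was no longer called without a filter (adjusted p = 0.0213), with cyclic loess (0.0106) or with only the groups of the contrast (0.0226), and without a filter neither were the Vegfa interaction of experiment 1 (0.0175) and Tpi1 and Ldha in DBA/2 cells of experiment 2 (0.0181 and 0.0171).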

Other observations

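Before loading, genes of the ATF4 and CHOP stress response also differed between the strains. In experiment 2 without the doubted arrays, 7 of 12 were higher in DBA/2 cells and none lower, against 7.01% and 8.02% of all genes. The median was 0.76 log2 units, and the largest differences were those of Chac1 (2.39 ± 0.25), the amino acid transporter Slc7a5 (2.34 ± 0.14) and Asns (1.48 ± 0.14). By the labels of experiment 2, 1 of the 12 was higher and none lower, against 4.96% and 5.69% of all genes. The median was then 0.41. In experiment 1 the genes of this list ran both ways, with 5 of 11 higher and 2 lower, against 14.3% and 13.9% of all genes. Asns was lower there (-0.47 ± 0.075). Bhlhe40, a HIF target that represses transcription, was lower in unloaded DBA/2 cells in both experiments, by -1.12 ± 0.077 and -2.13 ± 0.19 log2 units, the second without the doubted arrays.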
